A study of Mus musculus and Ictidomys tridecemlineatus with 36 samples.

Results

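Cell cycle and replication genes were examined in the CUT&RUN peak lists of postnatal day 2 (P2) mouse retina. The 41 genes were given as a list by role, and they make up 41 of the 21938 protein-coding genes on chromosomes 1 to 19, X and Y. They comprise 13 replication genes, 12 genes of cyclins and cyclin-dependent kinases (CDKs), 6 genes of E2F factors, 3 genes of CDK inhibitors and 7 mitosis genes. A gene was counted for a target when a peak overlapped the stretch from 1 kb before to 1 kb after any of its annotated transcription start sites (TSS), and a wider window took in the gene body with 10 kb on each side. The rule behind the list uses no measured value, but the genes and their grouping were chosen with earlier results of these data known.

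The study profiled the retina of newborn mice and of the 13-lined ground squirrel (13LGS). For mouse, 20 libraries were made from P2 retina, each of 2 biological replicates being a pool of retinas from 3 individuals. The libraries were 2 each for H3K4me3, H3K27ac, H3K4me1 and the IgG control, 4 for Neurod1, and 8 for Otx2, with 4 for each of 2 Otx2 antibodies. The labels name no genotype, strain or treatment for these retinas. CUT&RUN cuts and releases DNA next to an antibody bound to the chromatin of isolated nuclei, and the released fragments are sequenced. The authors called 1 peak list per target jointly over its libraries, so each peak has 1 fold enrichment over IgG, no spread between replicates can be given, and no test between groups of genes was run. Read totals are not part of the lists, and the sequencing depth behind each value is therefore unknown. Shares of genes carry 95% Wilson intervals, which cover counting error only.

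H3K4me3 is a histone mark of promoters, H3K27ac marks active promoters and enhancers, and H3K4me1 lies at enhancers and on the shoulders of promoters. Otx2 is a homeodomain factor of photoreceptor and bipolar cell precursors, and Neurod1 is a basic helix-loop-helix factor of neuronal and photoreceptor differentiation. At this age retinal progenitors still divide next to newborn rods that have left the cycle. Dividing cells load the Mcm helicase on replication origins, pass into S phase when cyclin-CDK activity frees E2F factors from the retinoblastoma protein, and enter mitosis with cyclin B, Aurora kinases and Polo-like kinase. CDK inhibitors of the Cip/Kip family hold cells out of the cycle.

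The lists ranged from 4744 peaks for Neurod1 to 135798 for H3K4me1, with 14069 for H3K4me3, 29115 for Otx2 and 62930 for H3K27ac. Of these 246656 peaks, 560 lay in the wide windows of the cell cycle genes. H3K4me3 lay at a TSS of the retinal progenitor markers *Sox2*, *Pax6*, *Rax*, *Hes1* and *Fgf15*, at 27.1-fold to 159-fold, and of 5 of 6 photoreceptor precursor markers, with none at *Rcvrn*. It was listed at 0 of 3 microglial, 0 of 3 endothelial and 0 of 4 markers of other tissues, and at 1 of 4 of pigment epithelium (*Mitf*).

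H3K4me3 marked nearly every cell cycle gene. A peak lay at a TSS of 40 of the 41 genes, which is 97.6% (87.4 to 99.6), and over all protein-coding genes the share was 56.0%. The exception was *Ccnd2*, which encodes a D-type cyclin. In bulk retina, a mark carried by fewer cells and a weaker mark in each cell cannot be told apart. The highest H3K4me3 enrichment at a TSS had a median of 21.5-fold over the 40 genes (15.8 to 26.8, an interval from order statistics), beside 17.5-fold over the 12289 protein-coding genes with such a peak.

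The other 4 targets were found at the cell cycle promoters about as often as at other H3K4me3 promoters. H3K27ac lay at a TSS of 15 of 41 genes, or 36.6% (23.6 to 51.9), where the share over all genes was 22.6%. Of the 40 genes with H3K4me3 the share was 37.5%, next to 37.1% of all genes with H3K4me3 at a TSS. H3K4me1 lay at 38 of 41 TSS sets against 63.6% of all genes, and at 92.5% of the genes with H3K4me3 against 91.9%. Otx2 lay at 36 of 41, where all genes gave 51.0%, and at 87.5% of those with H3K4me3, where all such genes gave 86.4%. Neurod1 lay at 4 of 41, where all genes gave 5.76%, and among genes with H3K4me3 the shares were 10.0% and 9.46%. Among genes with H3K4me3 each of these 4 shares was near its background, so they give no result about the cell cycle genes as a set. Calls used any annotated start, of which the cell cycle genes had a median of 5 and all genes 3. With only the 5′ end of the gene record as TSS, H3K27ac lay at 11 of the 41 genes, and H3K4me1 and Otx2 at 33 each. All-gene shares were not computed under that setting.

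**Figure D1:**
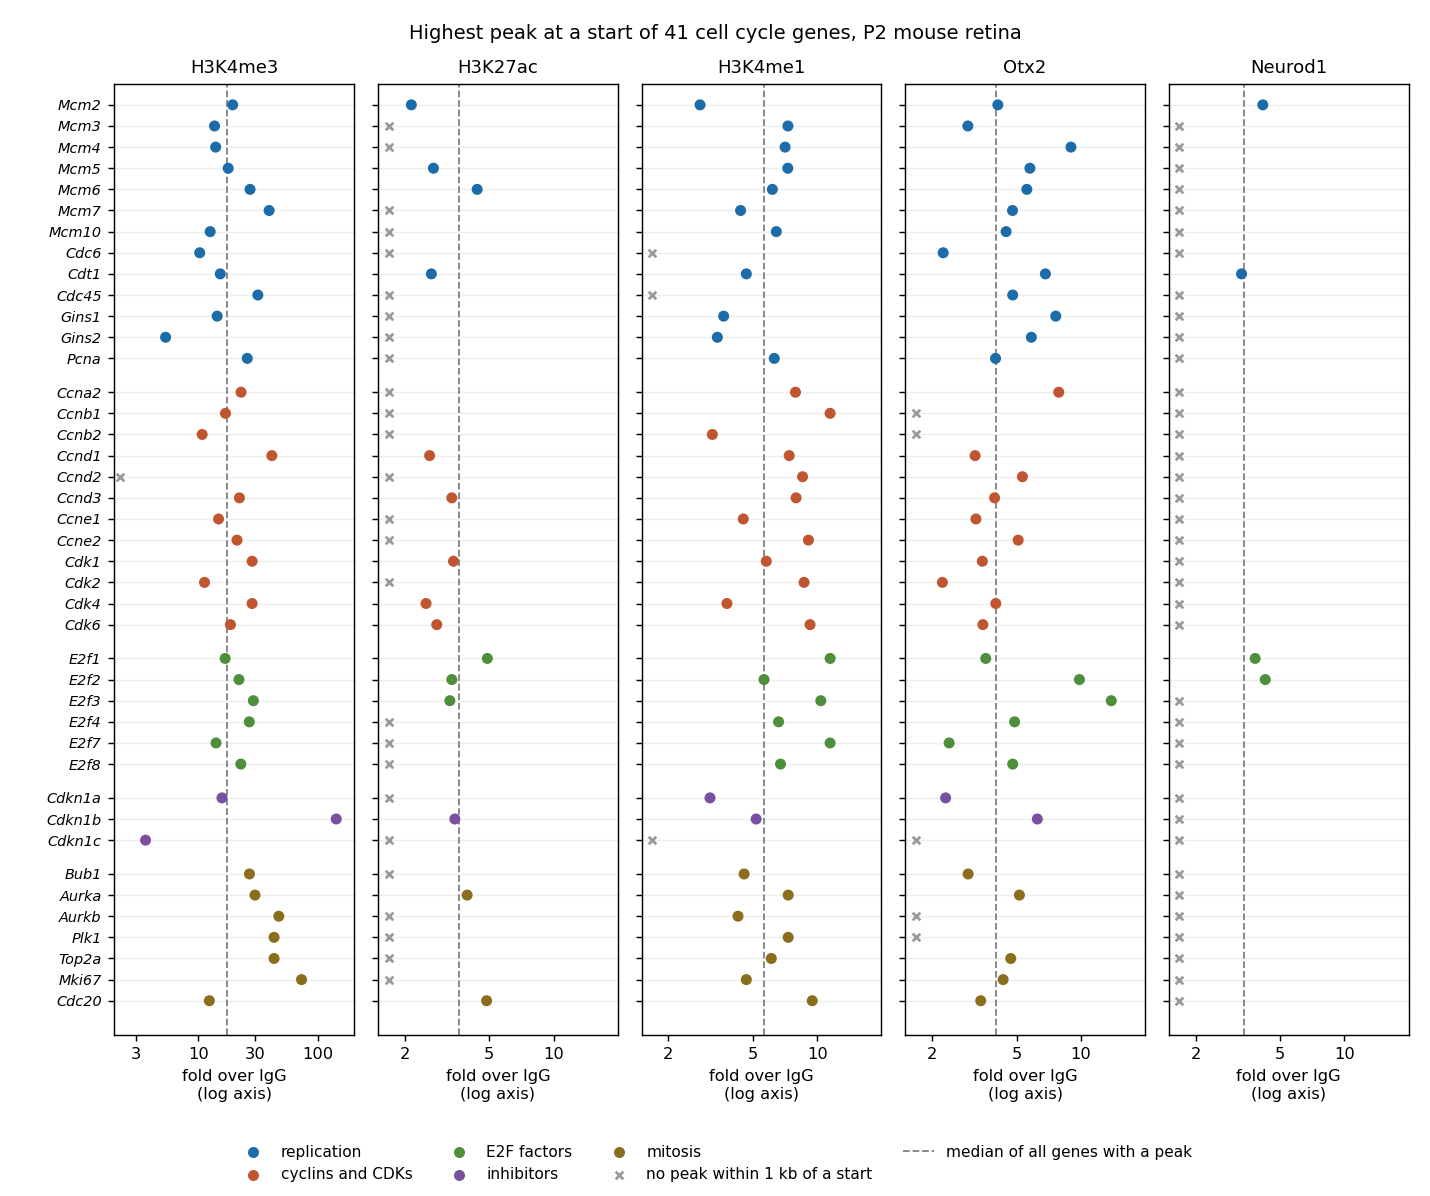
Highest fold enrichment over IgG (log axes) of a peak within 1 kb of a TSS for each of the 41 genes, 1 panel per target, with genes coloured by role, crosses for no peak, and a dashed line at the median of all protein-coding genes with a peak. H3K4me3 runs from 3.64-fold at *Cdkn1c* to 142-fold at *Cdkn1b*, 6 of the 7 mitosis genes lie to the right of the dashed line, and Neurod1 has only 4 points.

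The combinations of targets are given as shares of the 40 genes with H3K4me3 at a TSS, beside the same share of all such genes. H3K4me3, H3K4me1 and Otx2 without the other 2 targets were found at 18 genes (45.0%, against 43.0%), and the same 3 with H3K27ac at 11 (27.5%, against 28.0%). All 5 targets lay at 4 genes (10.0%, against 5.68%), *Mcm2*, *Cdt1*, *E2f1* and *E2f2*. That count rests on Neurod1, which was left at 2 of the 41 genes (4.88%) with a TSS window of 500 bp or with at least 250 bp shared, and at 3 (7.32%) with the summit inside the window. H3K4me3 and H3K4me1 alone lay at 4 genes (10.0%, against 10.1%), *Ccnb1*, *Ccnb2*, *Aurkb* and *Plk1*. These shares lie near the background or rest on 4 genes, and give no result about the list. *Cdc6* and *Cdc45* carried H3K4me3 and Otx2 without H3K4me1, *Ccnd2* carried H3K4me1 and Otx2 without H3K4me3, and *Cdkn1c* carried H3K4me3 only.

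The H3K4me3 and Otx2 summits lay close to the start, and those of H3K4me1 lay farther into the gene. The median distance of the strongest H3K4me3 summit from its nearest TSS was 222 bp, and 31 of 40 summits lay downstream. For Otx2 the median distance was 128 bp, with 21 of 36 summits upstream. For H3K4me1 it was 917 bp, with 29 of 38 downstream. Over all protein-coding genes the medians were 160, 145 and 803 bp, in the same order. There 75.7% of H3K4me3 and 64.5% of H3K4me1 summits lay downstream, beside 77.5% and 76.3% for the cell cycle genes. Of all Otx2 summits, 6081 of 11192 lay upstream. The same layout was thus found over all genes, and the differences were not tested.

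The 15 genes with H3K27ac at a TSS had a median H3K4me3 of 22.1-fold, and the 25 without it had 16.9-fold. The ranges overlapped, from 12.4 to 142 and from 3.64 to 72.9. Over all genes the medians were 21.9-fold with H3K27ac and 15.1-fold without, so the cell cycle genes showed the same order.

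Cell cycle promoters are known for a small set of sequence elements. E2F factors bind sites such as TTTCCCGC and TTTGGCGC in genes that are transcribed at the entry to S phase. The cell cycle genes homology region (CHR), TTTGAA, is bound by MuvB complexes at genes that peak late in the cycle, often beside CCAAT boxes bound by NF-Y. These letters were searched on both strands, together with TAATCC for Otx2 and CAGATG for Neurod1, in windows from 250 bases before to 50 after the start in the RefSeq promoter table (GRCm38.p6). The table held 31 of the 41 genes, or 75.6%, and *Mcm4*, *Gins1*, *Gins2*, *Ccna2*, *Ccnd1*, *Ccnd2*, *Ccne2*, *E2f4*, *Cdkn1c* and *Aurkb* were not in it. With under 80% of the genes matched, a reading of the whole list is void, and the counts below describe the matched promoters. At *Cdk6*, *Mcm7*, *E2f1* and *Cdc6* the RefSeq start lay 2408, 539, 466 and 350 bp from the 5′ end of the gene record. At *Ccnd3* and *Cdkn1a* it lay 0 and 3 bp from that end. Their strongest H3K4me3 summits lay 89018 and 3346 bp into the gene. The searched windows of *Ccnd3* and *Cdkn1a* therefore do not describe the starts with H3K4me3.

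E2F letters were found mainly in the replication and E2F groups. CHR letters were found in most mitosis promoters and in some of 3 other groups. An E2F match of either spelling lay in 6 of 10 replication promoters (*Mcm3*, *Mcm5*, *Mcm6*, *Mcm7*, *Cdc6* and *Cdt1*) and in 3 of 5 E2F factor promoters (*E2f2*, *E2f3* and *E2f7*). It lay in 1 of 8 cyclin and CDK promoters (*Cdk2*), 0 of 2 inhibitor promoters and 0 of 6 mitosis promoters. The share was 2.18% of 16522 promoters of the same length, and 3.26% of the 9628 whose gene had H3K4me3 at a TSS. CHR letters lay in 5 of 6 mitosis promoters (*Aurka*, *Plk1*, *Top2a*, *Mki67* and *Cdc20*), and in 15.6% of all promoters and 10.9% of those with H3K4me3. They lay also in 2 of 8 cyclin and CDK promoters (*Ccnb2* and *Cdk1*), 2 of 5 E2F factor promoters (*E2f3* and *E2f8*) and 2 of 10 replication promoters (*Mcm2* and *Cdc45*). A CCAAT box on either strand was found in 6 of 6 mitosis promoters, 8 of 10 replication, 4 of 8 cyclin and CDK, 4 of 5 E2F factor and 1 of 2 inhibitor promoters, beside 38.8% of all and 39.3% of those with H3K4me3.

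TAATCC lay in 0 of 31 promoters (0 to 11%), beside 6.49% of all promoters and 5.23% of those with H3K4me3. CAGATG lay in 1 of 31, that of *E2f2* (3.23%, 0.572 to 16.2), beside 14.5% and 10.5%. Both intervals hold both background shares. No 2 matches of different motifs overlapped in these promoters (0 overlaps).

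**Figure D2:**
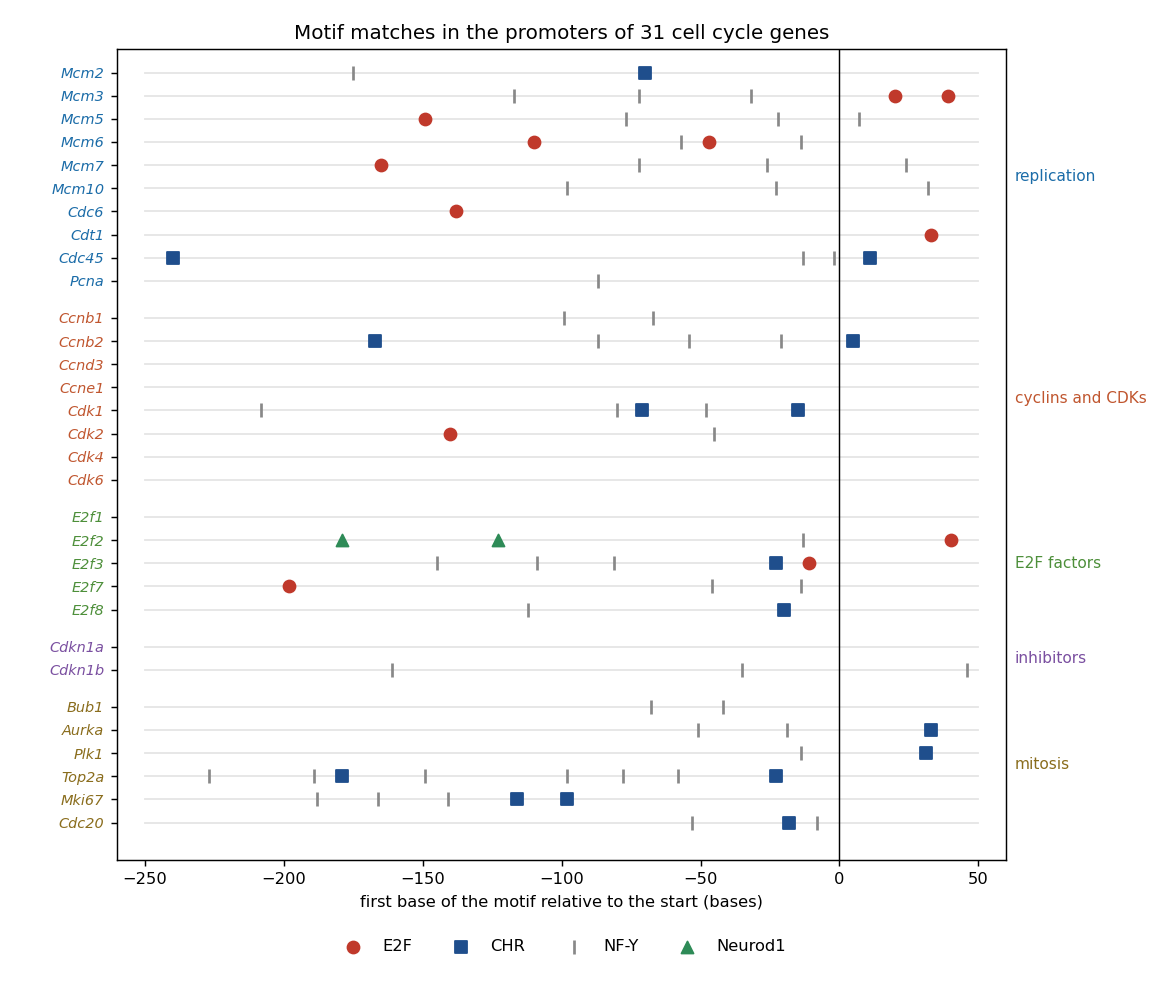
Position of each motif match in the 31 matched promoters, with the start at 0 on the horizontal axis in bases, a line per gene, and symbols for E2F, CHR, NF-Y and Neurod1 letters on either strand. E2F circles lie in replication and E2F factor genes and in *Cdk2*, and the 2 Neurod1 triangles in *E2f2*. CHR squares lie in 5 of 6 mitosis genes and also in *Ccnb2*, *Cdk1*, *E2f3*, *E2f8*, *Mcm2* and *Cdc45*.

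The 8 promoters printed here were chosen to show each kind of match beside its peaks, with 250 bases before the RefSeq start on the strand of the gene. Capitals mark the searched letters on either strand, namely TTTCCCGC or GCGGGAAA and TTTGGCGC or GCGCCAAA for E2F, TTTGAA or TTCAAA for CHR, CCAAT or ATTGG for NF-Y, and CAGATG for Neurod1. *Mcm6* and *Mcm5* stand for the replication group, *E2f3* and *E2f2* for the E2F factors, *Cdk1* for the kinases, *Mki67* and *Top2a* for the mitosis group, and *Cdkn1b* for a promoter with CCAAT boxes only.
*Mcm6* (chr1:128359706-128359955, minus strand): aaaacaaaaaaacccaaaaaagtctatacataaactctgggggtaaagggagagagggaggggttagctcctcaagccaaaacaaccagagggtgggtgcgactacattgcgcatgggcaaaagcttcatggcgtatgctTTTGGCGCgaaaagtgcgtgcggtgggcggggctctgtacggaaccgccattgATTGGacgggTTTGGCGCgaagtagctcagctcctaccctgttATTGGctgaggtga
*Mcm5* (chr8:75109259-75109508, plus strand): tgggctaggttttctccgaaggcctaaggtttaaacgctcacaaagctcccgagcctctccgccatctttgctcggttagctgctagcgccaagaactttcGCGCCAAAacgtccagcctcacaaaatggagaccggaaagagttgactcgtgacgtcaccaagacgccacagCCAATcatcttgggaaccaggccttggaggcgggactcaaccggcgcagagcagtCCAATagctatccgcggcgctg
*E2f3* (chr13:29986064-29986313, minus strand): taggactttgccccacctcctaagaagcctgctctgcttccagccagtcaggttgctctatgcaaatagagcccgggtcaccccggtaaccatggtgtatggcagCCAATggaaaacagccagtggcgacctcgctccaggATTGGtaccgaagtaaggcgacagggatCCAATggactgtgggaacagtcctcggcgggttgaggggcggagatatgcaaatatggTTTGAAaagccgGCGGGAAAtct
*E2f2* (chr4:136172024-136172273, plus strand): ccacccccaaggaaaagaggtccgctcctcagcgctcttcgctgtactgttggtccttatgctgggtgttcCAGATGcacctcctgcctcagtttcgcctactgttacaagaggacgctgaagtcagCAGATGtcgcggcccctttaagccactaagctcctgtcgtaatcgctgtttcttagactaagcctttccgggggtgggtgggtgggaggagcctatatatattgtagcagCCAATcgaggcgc
*Cdk1* (chr10:69352913-69353162, minus strand): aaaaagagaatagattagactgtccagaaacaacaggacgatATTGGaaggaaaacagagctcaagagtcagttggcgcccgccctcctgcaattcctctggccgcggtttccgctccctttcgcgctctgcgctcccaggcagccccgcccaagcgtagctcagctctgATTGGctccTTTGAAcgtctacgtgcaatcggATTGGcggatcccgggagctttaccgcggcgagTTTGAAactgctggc
*Mki67* (chr7:135716380-135716629, minus strand): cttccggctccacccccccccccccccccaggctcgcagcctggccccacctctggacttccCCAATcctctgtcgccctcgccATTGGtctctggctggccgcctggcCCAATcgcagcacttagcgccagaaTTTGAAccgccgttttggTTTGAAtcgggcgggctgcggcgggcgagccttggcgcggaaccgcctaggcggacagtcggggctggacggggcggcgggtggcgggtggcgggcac
*Top2a* (chr11:99024190-99024439, minus strand): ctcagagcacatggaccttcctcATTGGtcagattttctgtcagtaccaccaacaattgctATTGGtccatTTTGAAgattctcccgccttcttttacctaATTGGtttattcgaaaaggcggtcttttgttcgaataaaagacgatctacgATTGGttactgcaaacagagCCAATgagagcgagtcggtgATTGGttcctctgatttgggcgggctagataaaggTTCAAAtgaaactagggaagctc
*Cdkn1b* (chr6:134920151-134920400, plus strand): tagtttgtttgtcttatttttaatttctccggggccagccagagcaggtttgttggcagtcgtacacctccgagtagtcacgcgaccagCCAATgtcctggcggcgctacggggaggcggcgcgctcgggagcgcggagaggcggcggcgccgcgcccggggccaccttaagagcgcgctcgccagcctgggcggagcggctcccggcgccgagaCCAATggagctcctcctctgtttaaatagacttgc

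Positions of matches count from the RefSeq start of the printed sequence. The E2F letters at -110 and -47 from the *Mcm6* start lay inside the H3K4me3, H3K4me1 and Otx2 peaks of that gene. At *E2f3* the CHR match at -23 and the E2F match at -11 lay inside the H3K4me3 and Otx2 peaks. The CAGATG copies of *E2f2* at -179 and -123 both lay inside its Neurod1 peak, which spanned chr4:136171971-136172167, and also inside its H3K27ac, H3K4me3 and Otx2 peaks. The CHR copies of *Mki67* at -116 and -98 and of *Cdk1* at -71 and -15 lay under H3K4me3 and Otx2. A match describes the letters and does not show that a factor was bound there.

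All 13 replication genes had H3K4me3 and Otx2 at a TSS. H3K4me3 had a median of 15.3-fold (12.6 to 27.1), Otx2 a median of 4.79-fold (3.98 to 6.82), and the all-gene median for Otx2 was 3.99-fold. H3K4me1 lay at 11 and H3K27ac at 4 of the 13. All genes with H3K4me3 at a TSS gave 86.4% for Otx2, 91.9% for H3K4me1 and 37.1% for H3K27ac. The Wilson intervals of the group held these shares, so the counts give no result about the group.

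The subunits of the Mcm helicase, which is loaded on origins and unwinds DNA in S phase, spanned most of the group's range. *Mcm7* had the highest H3K4me3 of the group at 39.1-fold, in a peak of 3312 bp, with H3K4me1 at 4.37-fold and Otx2 at 4.78-fold and no H3K27ac or Neurod1 peak. *Mcm3* and *Mcm4* had H3K4me3 at 13.7-fold and 14.0-fold, also without H3K27ac. *Mcm4* had the highest Otx2 of the group at 8.99-fold. *Mcm5* was the helicase gene nearest the all-gene H3K4me3 median. It had 17.8-fold H3K4me3 with H3K27ac at 2.73-fold, H3K4me1 at 7.28-fold and Otx2 at 5.77-fold.

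*Mcm6* and *Mcm2* marked the ends of the H3K27ac range in the group. *Mcm6* had H3K4me3 at 27.1-fold, H3K27ac at 4.38-fold, H3K4me1 at 6.16-fold and Otx2 at 5.58-fold, with no Neurod1 peak. *Mcm2* had H3K4me3 at 19.4-fold, H3K4me1 at 2.82-fold, Otx2 at 4.08-fold and Neurod1 at 4.14-fold. Its H3K27ac peak, 2.15-fold with a −log10 q of 1.51, was the weakest H3K27ac peak at any TSS of the list and lay just above the calling threshold. The 4 *Mcm2* peaks of H3K4me3, H3K27ac, Otx2 and Neurod1 had their summits within 354 bp of the nearest TSS.

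*Cdt1* and *Cdc6* load the helicase together with the origin recognition complex. *Cdt1* carried all 5 targets, H3K4me3 at 15.3-fold, H3K27ac at 2.67-fold, H3K4me1 at 4.65-fold, Otx2 at 6.82-fold and Neurod1 at 3.29-fold. The Otx2 and Neurod1 summits lay 1257 and 1205 bp upstream of the gene's start, and the H3K4me3 summit lay 148 bp downstream of a TSS. The Otx2 peak covered the gene's start, and the Neurod1 peak overlapped only the upstream edge of the window. *Cdc6* had 10.3-fold H3K4me3 and the second-lowest Otx2 of the list, 2.26-fold, and neither H3K4me1 nor H3K27ac at a TSS. The wide window of *Cdc6* held 8 Otx2 peaks, of which 1 lay at its own TSS, and a Neurod1 peak at a TSS of the neighbouring gene *Rara*.

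*Mcm10*, *Cdc45*, *Gins1* and *Gins2* turn the loaded helicase into a moving fork. *Cdc45* had 31.5-fold H3K4me3 and 4.79-fold Otx2, and *Mcm10* had 12.6-fold and 4.46-fold. *Gins1* had 14.4-fold H3K4me3 and 7.63-fold Otx2. *Gins2* had the lowest H3K4me3 of the group, 5.35-fold, which 90.3% of all genes with a peak exceeded or equalled, with Otx2 at 5.86-fold, H3K4me1 at 3.40-fold and no H3K27ac or Neurod1 peak. *Pcna*, the sliding clamp of DNA polymerases, had 25.7-fold H3K4me3 and 3.98-fold Otx2 and no H3K27ac peak within 10 kb of its gene body.

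This group held the D-type cyclins and their kinases, which act before S phase, the E- and A-type cyclins with *Cdk2*, which act at and in S phase, and the B-type cyclins with *Cdk1*, which drive mitosis. H3K4me3 lay at 11 of 12 genes with a median of 21.1-fold (11.3 to 28.2), H3K4me1 at 12, Otx2 at 10, H3K27ac at 5 and Neurod1 at 0. For H3K4me1, Otx2, H3K27ac and Neurod1, all genes with H3K4me3 at a TSS gave 91.9%, 86.4%, 37.1% and 9.46%. The Wilson intervals of the group held these shares.

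The D-type cyclins differed in their promoter peaks, since *Ccnd1* and *Ccnd3* carried the same 4 targets and *Ccnd2* only H3K4me1 and Otx2. *Ccnd1* had the highest H3K4me3 of the group, 41.2-fold in a peak of 7464 bp, with H3K27ac at 2.62-fold, H3K4me1 at 7.39-fold, Otx2 at 3.19-fold and no Neurod1 peak. *Ccnd2* had no H3K4me3, H3K27ac or Neurod1 peak within 1 kb of a TSS. Its 5′ end lay under an H3K4me1 peak of 7064 bp (chr6:127148639-127155702) at 8.54-fold, and an Otx2 peak at 5.32-fold had its summit 4180 bp into the gene and reached the window of an internal TSS. The nearest H3K4me3 peak of *Ccnd2* was 230 bp wide at 3.30-fold, over a coding exon and 1939 bp from the nearest TSS, and no H3K27ac peak was listed within 37578 bp of a TSS. *Ccnd2* was therefore counted for H3K4me3 when the window was widened to 2 kb.

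*Ccnd3* was marked at a start far inside the annotated gene. Its strongest H3K4me3 peak, 22.1-fold, had its summit 89018 bp from the 5′ end of the gene record, where H3K27ac at 3.33-fold, H3K4me1 at 7.96-fold and Otx2 at 3.94-fold were also listed. No H3K4me3 peak lay within 1 kb of the 5′ end itself. Neurod1 had no peak at a *Ccnd3* TSS and 2 peaks in the wide window.

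The kinases all had H3K4me3 and Otx2. *Cdk1* and *Cdk4* had 28.2-fold H3K4me3 each, *Cdk6* had 18.6-fold and *Cdk2* 11.3-fold. At *Cdk4* H3K27ac was 2.52-fold with its summit 134 bp from a TSS, H3K4me1 was 3.77-fold and Otx2 3.99-fold. At *Cdk1* and *Cdk6* the H3K27ac peaks counted at a TSS were 3.39-fold and 2.83-fold and had their summits 11415 and 129606 bp into the gene, and reached the windows of internal starts. H3K4me1 and Otx2 were 5.77-fold and 3.45-fold at *Cdk1* and 9.26-fold and 3.47-fold at *Cdk6*. With the 5′ end of the gene record as the only TSS, H3K27ac was counted at 2 of the 12 genes in this group. *Cdk2*, the partner of cyclins E and A, had the lowest Otx2 of the list, 2.24-fold with a −log10 q of 2.77.

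The E-type cyclins and cyclin A had no H3K27ac at a TSS. *Ccna2* had 22.8-fold H3K4me3 and 7.88-fold Otx2, *Ccne2* 21.1-fold and 5.08-fold, and *Ccne1* 14.8-fold and 3.22-fold. The B-type cyclins had neither H3K27ac nor Otx2 at a TSS, and 1 H3K27ac peak was listed in the wide window of *Ccnb1*. *Ccnb1* had 16.9-fold H3K4me3 and 11.5-fold H3K4me1, and its nearest Otx2 peak was 36583 bp from a TSS. *Ccnb2* had the lowest H3K4me3 of the group, 10.8-fold, with H3K4me1 at 3.22-fold and no peak of the other 3 targets, and its nearest Otx2 peak was 81517 bp away.

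All 6 E2F genes had H3K4me3, H3K4me1 and Otx2 at a TSS, with an H3K4me3 median of 22.3-fold and an H3K4me1 median of 8.59-fold, beside 5.64-fold over all genes. Of all genes with H3K4me3 at a TSS, 91.9% had H3K4me1, 86.4% Otx2 and 37.1% H3K27ac there. H3K27ac lay at *E2f1*, *E2f2* and *E2f3*, the activating members of the family, and not at the repressor *E2f4* or the atypical repressors *E2f7* and *E2f8*. With 3 genes on each side this is a count without a test. H3K27ac was left at 2 of the 6 genes with a TSS window of 500 bp or with at least 250 bp shared. It was also left at 2 with the summit inside the window, or with a −log10 q of at least 5.

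*E2f1* and *E2f2* were the E2F genes with Neurod1 at a TSS, a share of 33.3% (9.68 to 70.0) in a group of 6. All genes with H3K4me3 at a TSS gave 9.46%, and the difference rests on 2 genes and was not tested. *E2f1* had H3K4me3 at 16.8-fold, H3K27ac at 4.89-fold, the highest of the list at a TSS, H3K4me1 at 11.5-fold, Otx2 at 3.58-fold and Neurod1 at 3.81-fold. Its H3K27ac, Otx2 and Neurod1 summits lay 1438, 1213 and 1127 bp into the gene. The H3K27ac summit was 1266 bp from the nearest TSS, so that peak was counted by its edge and not by its summit. *E2f2* had H3K4me3 at 21.9-fold, H3K27ac at 3.33-fold, H3K4me1 at 5.63-fold, Otx2 at 9.85-fold and Neurod1 at 4.25-fold. There the H3K27ac, Otx2 and Neurod1 summits lay 329, 302 and 342 bp upstream of the 5′ end of the gene record. The H3K4me3 summit lay 652 bp downstream of it. The RefSeq start of the printed sequence is 120 bp upstream of that end, so the H3K27ac, Otx2 and Neurod1 summits fall within the printed bases.

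*E2f3* had the highest H3K4me3 of the group and the highest Otx2 of the list. H3K4me3 was 28.9-fold, H3K27ac 3.26-fold and H3K4me1 10.4-fold, with no Neurod1 peak. Its Otx2 peak was 13.9-fold, 3092 bp wide, with the summit 385 bp upstream, and it ranked in the top 0.724% of all genes with Otx2 at a TSS. *E2f7*, at the other end, had 14.1-fold H3K4me3, 11.5-fold H3K4me1 and 2.41-fold Otx2, with no H3K27ac or Neurod1. *E2f4* and *E2f8* had 26.7-fold and 22.7-fold H3K4me3 and 4.89-fold and 4.79-fold Otx2.

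The 3 Cip/Kip inhibitors, which bind cyclin-CDK complexes and stop division, spanned the whole H3K4me3 range of the list. *Cdkn1b* was highest of the 41 genes at 142-fold, *Cdkn1a* was at 15.8-fold, and *Cdkn1c* was lowest of the 40 genes with a peak at 3.64-fold. The highest H3K4me3 peak of the whole mouse list was 159-fold, and the *Cdkn1b* peak ranked in the top 0.0163% of genes with H3K4me3 at a TSS. With 3 genes the median, 15.8-fold, says little.

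*Cdkn1b* stood apart in width as well as height. Its H3K4me3 peak spanned chr6:134919157-134925467, 6311 bp that covered nearly the whole gene, and 2 further H3K4me3 peaks lay on either side at 20.8-fold and 17.6-fold. At its TSS H3K27ac was 3.44-fold, H3K4me1 5.17-fold and Otx2 6.25-fold, with no Neurod1 peak. *Cdkn1a* had H3K4me1 at 3.14-fold and Otx2 at 2.32-fold, and its H3K4me3 summit lay 3346 bp from the 5′ end of the gene record, at an internal start. *Cdkn1c* had 2 short H3K4me3 peaks of 3.64-fold and 3.38-fold with −log10 q values of 4.46 and 4.34, and no peak of the other 4 targets at a TSS. Upstream of *Cdkn1c*, 3 Otx2 peaks of 2.94-fold to 3.49-fold lay between 2943 and 9021 bp away.

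All 7 mitosis genes had H3K4me3 at a TSS, with a median of 43.0-fold (12.4 to 72.9), beside 21.5-fold for the list and 17.5-fold for all genes. This was the highest of the 5 group medians, but its interval held the other 4, and the order was not tested. Among peaks past a −log10 q of 5 the inhibitor median, then over 2 genes, was 79.0-fold against 43.0-fold for mitosis, and with only the 5′ end of the gene record as TSS it was 72.9-fold. H3K4me1 lay at 7, Otx2 at 5 and Neurod1 at 0 of the 7, beside 91.9%, 86.4% and 9.46% of all genes with H3K4me3 at a TSS. H3K27ac lay at 2 of the 7, or 28.6% (8.22 to 64.1), an interval that holds both background shares of H3K27ac.

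*Mki67*, which encodes the proliferation antigen Ki-67 that coats mitotic chromosomes, had 72.9-fold H3K4me3 in a peak of 4038 bp. Its H3K4me1 was 4.65-fold and its Otx2 4.32-fold. It had no H3K27ac or Neurod1 within 1 kb of a TSS, but 5 H3K27ac peaks lay in the gene, the nearest 1430 bp from a TSS and under the H3K4me3 peak. *Aurkb* and *Plk1*, kinases of chromosome attachment and of mitotic entry, had 47.1-fold and 43.0-fold H3K4me3 without H3K27ac, Otx2 or Neurod1 at a TSS, and H3K4me1 at 4.25-fold and 7.31-fold. The nearest Otx2 peak was 3905 bp from a TSS for *Aurkb* and 26139 bp for *Plk1*. *Top2a*, which untangles sister chromatids, had 43.0-fold H3K4me3 and 4.69-fold Otx2.

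*Bub1*, a kinase of the spindle checkpoint, and *Aurka*, a kinase of the spindle poles, had 26.8-fold and 29.8-fold H3K4me3. *Aurka* had H3K27ac at 3.93-fold, H3K4me1 at 7.31-fold and Otx2 at 5.15-fold with no Neurod1 peak, and its H3K27ac summit lay 7707 bp into the gene at an internal start. *Cdc20*, an activator of the anaphase-promoting complex, was the lowest of the group at 12.4-fold H3K4me3. It had the second-highest H3K27ac of the list at a TSS, 4.85-fold, with H3K4me1 at 9.48-fold, Otx2 at 3.39-fold and no Neurod1 peak. Within 1 kb of a TSS, the highest H3K4me3 and the highest H3K27ac of this group thus lay at different genes. The H3K27ac count depended on the window. It was 4 of the 7 genes with 2 kb on each side, and 1 with only the 5′ end of the gene record as TSS.

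**Figure D3:**
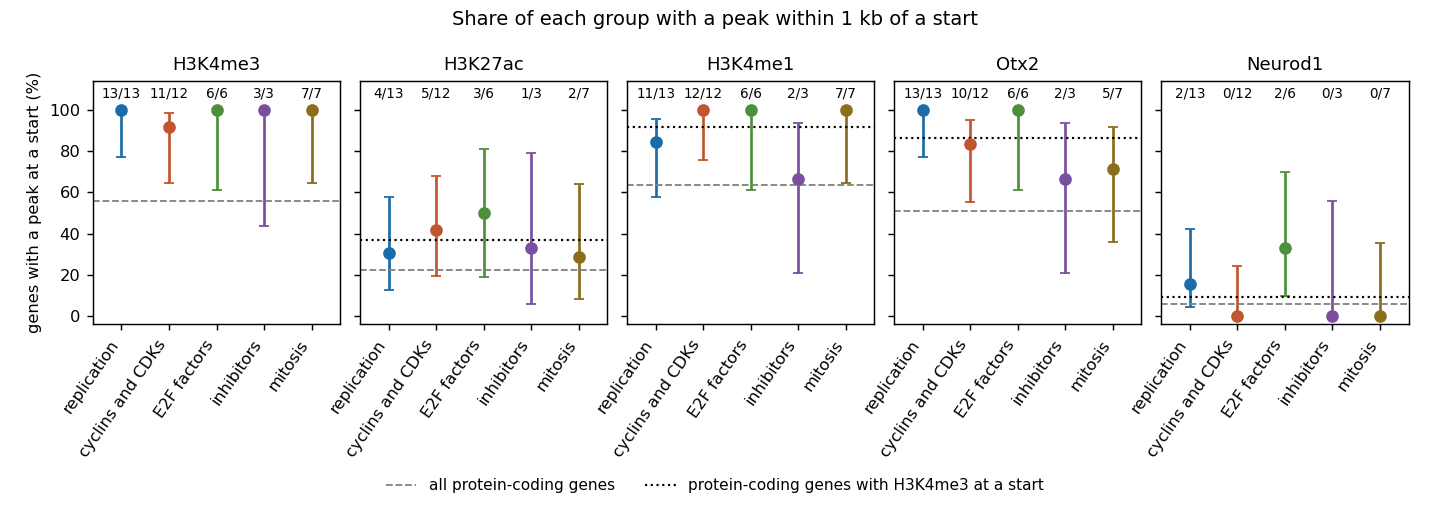
Percentage of each role group with a peak within 1 kb of a TSS, with 95% Wilson bars, counts above, and lines for all protein-coding genes (dashed) and for those with H3K4me3 at a TSS (dotted). Otx2 reaches 13 of 13 replication and 6 of 6 E2F factor genes and 5 of 7 mitosis genes. Every bar but that of Neurod1 at the E2F factors spans the dotted line of its panel where one is drawn. That bar rests on 2 of 6 genes and starts at 9.68%, where the line is at 9.46%.

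Across the groups, Otx2 was absent from a TSS of 5 genes, *Ccnb1*, *Ccnb2*, *Aurkb*, *Plk1* and *Cdkn1c*. Otx2 lay at a TSS of the other 5 mitosis genes and of *Cdk1*. The 3 highest H3K27ac values at a TSS were those of *E2f1*, *Cdc20* and *Mcm6*, at 4.89-fold, 4.85-fold and 4.38-fold, and the 3 lowest were those of *Mcm2*, *Cdk4* and *Ccnd1*, at 2.15-fold, 2.52-fold and 2.62-fold. The *E2f1* peak had its summit 1266 bp from the nearest TSS, outside the 1 kb window. The median over the 15 genes was 3.33-fold, beside 3.58-fold over all genes with H3K27ac at a TSS. With peaks limited to a −log10 q of at least 5, H3K27ac was left at 6 of the 41.

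For 6 genes the peaks cannot be assigned to 1 promoter, because the TSS window holds a TSS of a neighbour on the opposite strand. These were *Mcm4* with *Prkdc* (466 bp apart), *Mcm7* with *Ap4m1* (160 bp), *Cdc45* with *Ufd1* (140 bp), *Gins1* with *Abhd12* (659 bp), *Cdk2* with *Pmel* (149 bp) and *Aurka* with *Cstf1* (146 bp).

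In the gene body with 10 kb on each side, H3K4me3 and H3K4me1 were found at 41 of 41 genes each, where all protein-coding genes gave 62.7% and 77.6%. Otx2 was found at 38 genes (92.7%, 80.6 to 97.5) against 64.7%, and H3K27ac at 27 (65.9%, 50.5 to 78.4) against 46.4%. Neurod1 was found at 7 (17.1%), close to the 15.3% of all genes, namely *Mcm2*, *Cdc6*, *Cdt1*, *Ccnd3*, *Cdk6*, *E2f1* and *E2f2*. The windows had a median of 33.9 kb for the cell cycle genes and 37.4 kb for all genes, and the cell cycle genes had a median of 5 distinct starts each, where all genes had 3. The all-gene shares include genes with no H3K4me3 at a TSS. For wide windows and distal peaks no share limited to genes with H3K4me3 was computed. An excess particular to cell cycle genes therefore cannot be read from them.

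Distal H3K27ac, meaning peaks outside the 1 kb TSS windows of all protein-coding genes, was found at 22 of 41 genes (53.7%, 38.7 to 67.9). All genes, with or without H3K4me3 at a TSS, gave 34.2%. Most of these peaks lay at very few genes. *Cdk6* held 61 of the 132 distal peaks in a window of 210 kb, *E2f3* held 22 in 99.5 kb, and no other gene held more than 6. The median gene had 1 distal peak.

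**Figure D4:**
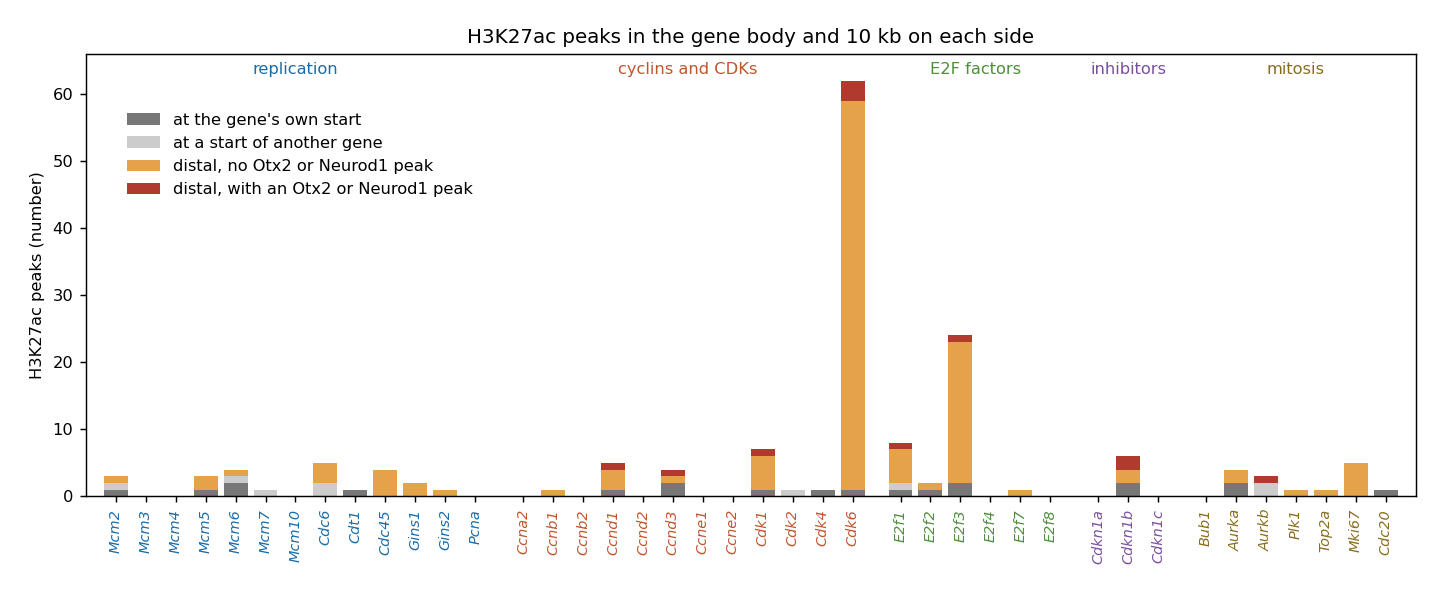
Number of H3K27ac peaks in the gene body and 10 kb on each side for each of the 41 genes in order of role group, stacked by whether the peak lies at the gene's own TSS, at a TSS of another gene, or distal with or without an Otx2 or Neurod1 peak. *Cdk6* with 62 and *E2f3* with 24 peaks tower over the others, and 14 genes have none.

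At *Cdk6* and *E2f3* the acetylated stretches lay in introns. *Cdk6*, a kinase partner of the D-type cyclins, had 29.1 distal peaks per 100 kb of window, and these covered 21.7% of it. Its number of distal peaks ranked 48 among all 21938 genes. *E2f3* had 22.1 distal peaks per 100 kb over 15.2% of its window, and ranked 358. Over all genes pooled the density was 2.84 distal peaks per 100 kb. *E2f1* had 6 distal peaks, over 25.2% of a window of 30.5 kb, which was the largest covered share of the 41 genes.

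A distal H3K27ac peak overlapped an Otx2 or Neurod1 peak at 8 genes (19.5%, 10.2 to 34.0), where all genes gave 14.0%. By group these were 0 of 13 replication genes, 4 of 12 cyclin and CDK genes, 2 of 6 E2F factor genes, 1 of 3 inhibitors and 1 of 7 mitosis genes. In all there were 11 such peaks, and each of them also overlapped H3K4me1. With the peaks of all lists held to a −log10 q of 5 or more, 11 genes had a distal peak and 4 had 1 that overlapped a factor.

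The strongest lay in an intron of *Cdk6*. A peak at chr5:3403741-3406939 had 15.6-fold H3K27ac with Otx2, and a peak at chr5:3393048-3396692 had 11.5-fold H3K27ac with both Otx2 and Neurod1. A weaker peak at 4.27-fold, with Otx2, lay 112665 bp from the 5′ end. In *Ccnd3* an intronic peak at chr17:47521452-47522898, with its summit 17229 bp from the 5′ end, had 3.84-fold H3K27ac with Otx2 at 6.53-fold and Neurod1 at 8.27-fold. That was the highest Neurod1 value in the windows of the 41 genes and lay at no annotated TSS of a protein-coding gene. The strongest H3K4me3 summit of *Ccnd3* lay 89018 bp from the same 5′ end.

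Near *E2f1*, a peak of 9.03-fold H3K27ac with Otx2 lay 7883 bp upstream of the gene (chr2:154576133-154579144). In an intron of *E2f3*, H3K27ac of 5.11-fold overlapped Otx2 at 5.86-fold, 59506 bp from the 5′ end. Downstream of *Cdkn1b*, 2 H3K27ac peaks of 7.13-fold and 2.95-fold overlapped Otx2, 7130 and 9594 bp from the 5′ end, under the flanking H3K4me3 peak. The *Cdk1* peak of 5.26-fold lay at the far end of the gene in a UTR. The peaks at *Ccnd1* and *Aurkb* were weak, 2.43-fold and 2.82-fold, and lay 2742 and 5649 bp upstream.

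**Figure D5:**
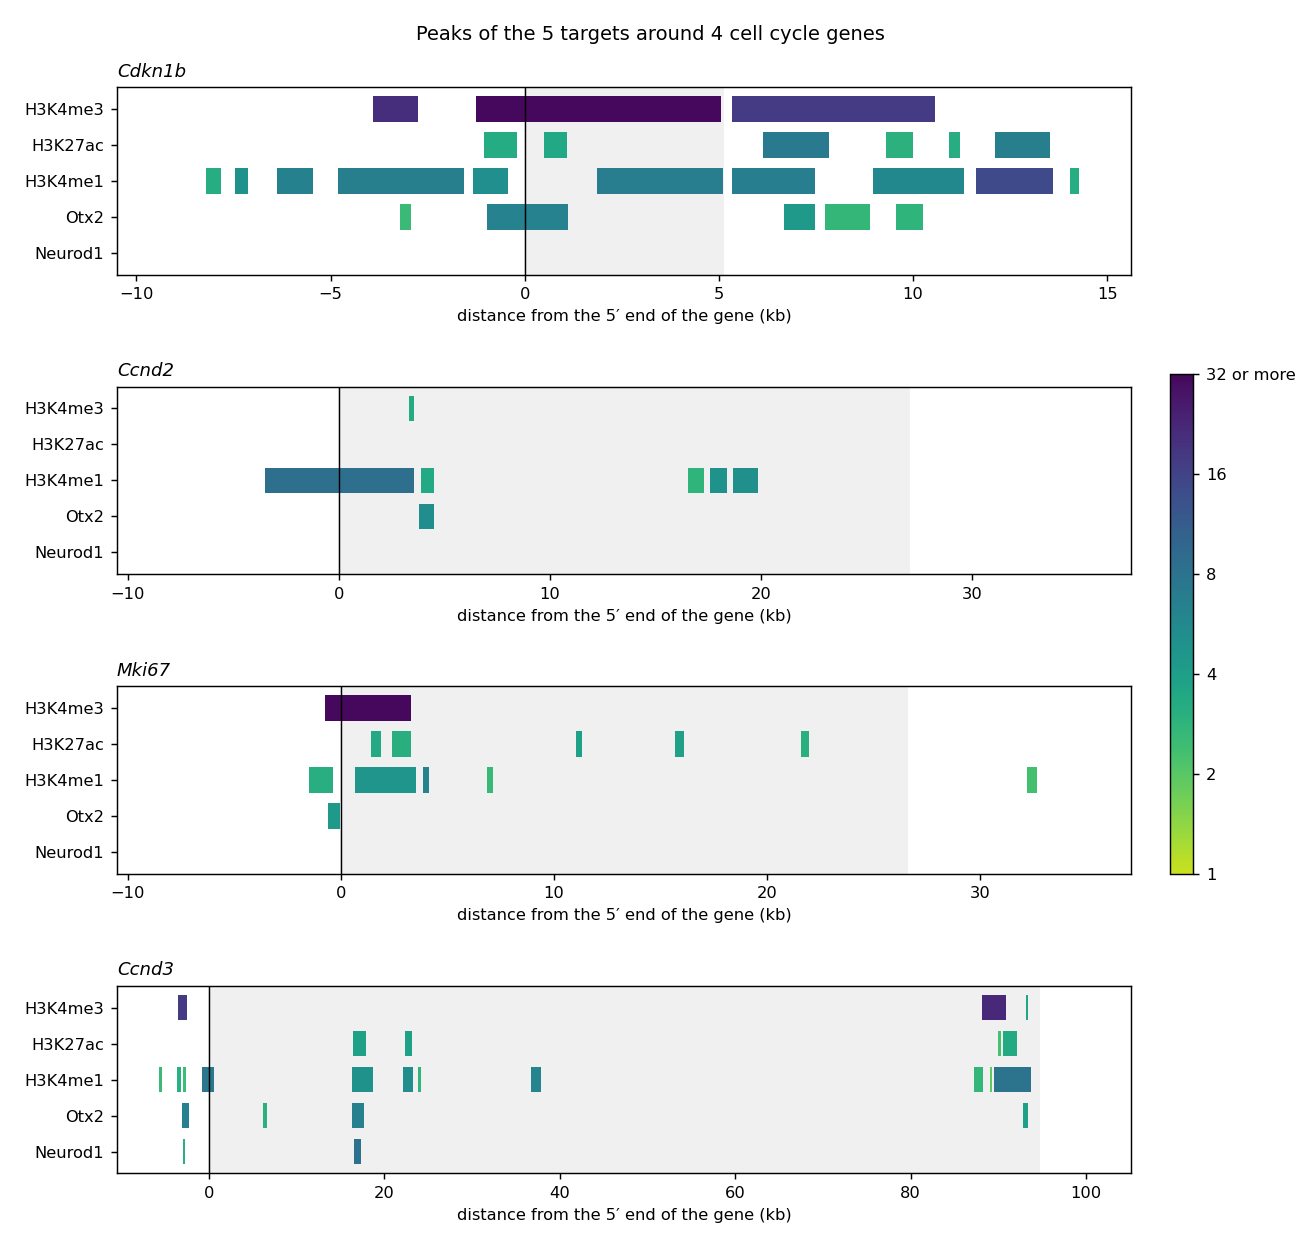
Peaks of the 5 targets around *Cdkn1b*, *Ccnd2*, *Mki67* and *Ccnd3*, plotted by distance in kb from the 5′ end of the gene record, with the gene body shaded and the fold over IgG in colour on a log scale that stops at 32. *Cdkn1b* lies almost wholly under H3K4me3, *Ccnd2* has only a thin H3K4me3 peak beside a wide H3K4me1 peak, *Mki67* has H3K27ac inside the gene but not at the start, and *Ccnd3* has its H3K4me3 near the 3′ end of the gene record and Otx2 with Neurod1 at about 17 kb.

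A further 65 genes of origin licensing, DNA synthesis, checkpoints, the retinoblastoma pathway and the spindle were counted in the same way. H3K4me3 lay at a TSS of 63, with a median of 19.7-fold (17.5 to 22.4), and was not listed at *Ccna1* and *Ccnb3*, cyclins known from the germ line. Otx2 lay at 62, H3K4me1 at 61, H3K27ac at 26 and Neurod1 at 7, where all protein-coding genes gave 51.0%, 63.6%, 22.6% and 5.76%. Among the 63 genes with H3K4me3 the shares were 96.8% for Otx2, 95.2% for H3K4me1, 41.3% for H3K27ac and 11.1% for Neurod1, beside 86.4%, 91.9%, 37.1% and 9.46% of all genes with H3K4me3. The Wilson interval for Otx2, 89.1 to 99.1, did not hold its background share, while those of H3K4me1, H3K27ac and Neurod1 did. The intervals cover counting error only, and these differences were not tested.

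Neurod1 lay at a TSS of *Cdc25b*, *Foxm1*, *Fen1*, *Orc6*, *Ttk*, *Incenp* and *Cdca8*. *Cdc25b*, a phosphatase that activates Cdk1, had the highest of these at 7.69-fold. In windows with a median of 48.1 kb, distal H3K27ac lay at 22 of the 65, or 33.8% (23.5 to 46), beside 34.2% of all genes. It overlapped Otx2 or Neurod1 at 3, or 4.62% (1.58 to 12.7), an interval that does not hold the 14.0% of all genes. The corresponding shares of the 41 genes were 53.7% and 19.5%, and the difference between the lists was not tested.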

How the data were processed

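CUT&RUN libraries of P2 mouse retina were analysed from the peak lists of H3K4me3, H3K27ac, H3K4me1, Otx2 and Neurod1. The authors trimmed reads with cutadapt 3.5 and Trim Galore 0.6.4, aligned them to GRCm38 with Bowtie2, filtered them with SAMtools 1.12, removed duplicates with UMI-tools, merged technical replicates, and called peaks jointly across replicates against IgG with MACS2 at a q-value of 0.05. Blacklisted regions were removed. Joint calling leaves no replicate values, and the filter on mapping quality removes reads that fit repeated sequence. Each deposited peak carries a fold enrichment over IgG, a ratio, and a −log10 q-value from the authors, both used without rescaling. A summit offset is a further deposited value.

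Peaks were assigned to genes of GENCODE release M21 with Python 3.11.15, numpy 2.4.6, pandas 2.3.3 and scipy 1.17.1, at an overlap of at least 1 bp. The overlap code was tested on simulated data against bedtools 2.31.1 over 2000 windows, with 0 differences. A gene's value was its highest fold at a TSS. Plots were drawn with matplotlib 3.10.9. The 13LGS lists were not used here. A tissue marker is not reported here.

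The genes, their grouping and the further list were chosen with earlier results of these data known. Full values are given for genes without H3K4me3 at a TSS, the highest and lowest H3K4me3 of each group, the 3 highest and 3 lowest H3K27ac values at a TSS, genes with Neurod1 at a TSS, and genes with distal H3K27ac that overlaps a factor. No test was run. The alternatives tried were stricter peaks, a larger overlap, other TSS windows and definitions, summits, genes with shared promoters left out, equal numbers of peaks, other flanks, and merged peaks.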

Additional observations from a re-analysis of the deposited data

How the results depend on the processing

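Of 440 values recomputed under the alternatives, 390 moved by less than their counting interval or by under 1.5 times, and 50 moved further, 27 over all 41 genes and 23 in role groups. Equal numbers of peaks per target, the 4744 with the highest −log10 q, lowered the share of genes with a TSS peak to 53.7% for H3K4me3, 31.7% for Otx2, and 0% for H3K27ac and H3K4me1. Under the same setting the median fold was 28.2 for H3K4me3 and 6.25 for Otx2, and the share with a peak in the wide window was 58.5% for H3K4me3, 14.6% for H3K27ac, 9.76% for H3K4me1 and 41.5% for Otx2. This setting leaves fewer peaks by construction, and 17 of the 23 role-group changes came from it. A −log10 q of at least 5 left H3K27ac at 14.6% of TSS sets and 36.6% of wide windows, 11 genes with a distal peak and 4 with a factor on it. A fold of at least 2.5 left 5 with a factor. TSS windows of 500 bp and of 2 kb gave H3K4me1 at 80.5% and 97.6%, the 5′ end of the gene record alone gave 80.5%, and summits inside the window gave 73.2%. The window of 2 kb gave H3K4me3 at 100% of genes. Without flanks, H3K27ac lay in 39.0% of gene bodies, with 13 genes holding a distal peak and 4 a factor on it. With 50 kb flanks the shares were 87.8% for H3K27ac, 97.6% for Otx2 and 36.6% for Neurod1, with 17 genes holding a factor on a distal peak. Apart from what follows by construction, the cause was not tested. No replicate could be left out and no paired analysis was possible because each list pools the libraries of a target. The strongest H3K27ac peak at each of the 15 TSS sets had a −log10 q from 1.51 to 10.6, and an absent H3K27ac peak does not show that the mark is absent.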
